A study of Mus musculus with 18 samples.

Results

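Livers that lacked Ppp6r3 in hepatocytes were compared with floxed control livers of mice kept on control diet (CD). The comparison used 8 of the 18 mice of the study, 4 LKO CD and 4 FF CD, and the 11090 of 25266 genes whose RPKM averaged 0.5 or more across the 18 mice. FF mice carried floxed Ppp6r3 alleles on a C57BL/6 background and had no Cre. LKO mice carried the same alleles together with Alb-Cre, a Cre recombinase driven by the albumin promoter, which the paper calls liver-specific. Which cell types of the liver lost or kept the gene was not tested. All mice were male, entered the experiment at 8 weeks of age and ate their diet for 16 weeks, with 10% of the calories from fat in CD and 32.5% in the high-fat diet (HFD). The remaining 5 FF HFD and 5 LKO HFD mice contributed to the estimate of the spread and served for a comparison between diets. Each value is the RPKM of a gene in 1 mouse, its reads divided by gene length and library depth.

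Ppp6r3 encodes SAPS3, a regulatory subunit that guides the catalytic subunit of protein phosphatase 6 (PP6) to its substrates, among them the energy sensor AMPK. Fatty acid breakdown in the hepatocyte is governed largely by the nuclear receptor PPAR alpha, which drives genes of the Cyp4a family, acyl-CoA thioesterases and peroxisomal enzymes. A separate programme of sex-biased genes, the major urinary proteins (Mup) among them, follows the pulses of growth hormone through STAT5b and is high in male liver.

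In CD livers 25 genes were called between the genotypes, at a fold change above 1.5 on the log2(RPKM + 1) scale with an adjusted p under 0.05 (limma, Benjamini-Hochberg over the 11090 genes, two-sided), which is 0.225% of the genes tested. Of the 25, 15 were lower in LKO mice (0.135%) and 10 were higher (0.0902%). Without the limit on the fold 26 genes passed (0.234%), 16 lower and 10 higher. The lower genes were Ppp6r3 itself, 6 Mup genes and other genes of male liver such as Selenbp2, Serpina1e, Ugt2b38 and Cyp7b1. The higher genes included the fatty acid hydroxylases Cyp4a14 and Cyp4a10, the thioesterase Acot3, the peroxisomal transporter Abcd2 and the detoxification genes Cyp2c38 and Mgst3. With the RPKM rescaled to the same sum in each mouse, 16 genes were higher and 15 lower. The count depended on single mice. It was 11 on leaving out FF CD mouse 2 and 15 on leaving out FF CD mouse 3. Dropping an LKO CD mouse gave 13 for mouse 2, 45 for mouse 3 and 14 for mouse 4. Of the 18 single mice left out in turn, Serpina1e lost its call for 12, Abcd2 for 9, Renbp and Vnn3 for 8, Acot3 for 7, Cyp7b1 for 6, Mup17, C9 and Acmsd for 5, Ugt2b38 for 4, Mup16 and Snhg11 for 3, Mup5 for 2 and Mup15 for 1. In a fit of the 8 CD mice alone 31 genes were called, 18 of them among the 25, with Acmsd, Acot3, Adgrf1, C9, Cyp2c38, Moxd1 and Renbp lost.

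In none of the 25 genes did the 4 LKO CD and 4 FF CD values overlap. The genes were called on these same mice, so the separation is not independent of the call. Over all tested genes, the groups were apart with every LKO mouse higher in 3.37% and with every LKO mouse lower in 1.7%. The values of each mouse are drawn in the plot of called genes, and those of all tested genes in the plot of fold change against level.

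**Figure D1:**
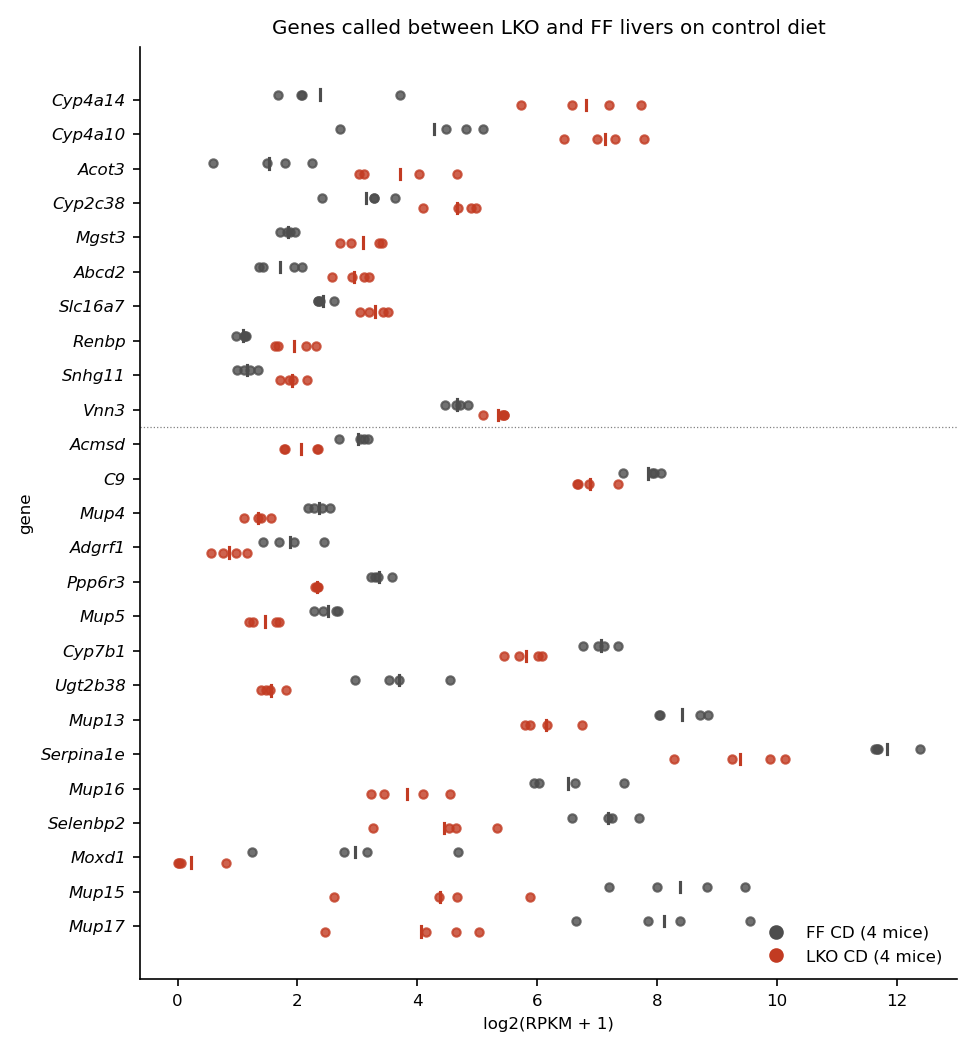
Level of the 25 called genes in each CD mouse, as log2(RPKM + 1), with FF CD mice in grey and LKO CD mice in red (4 mice each, 1 point per mouse, vertical bars at the group means). The dotted line parts the 10 genes higher in LKO mice (above) from the 15 lower genes (below), and the points of the genotypes do not overlap in any gene.

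**Figure D2:**
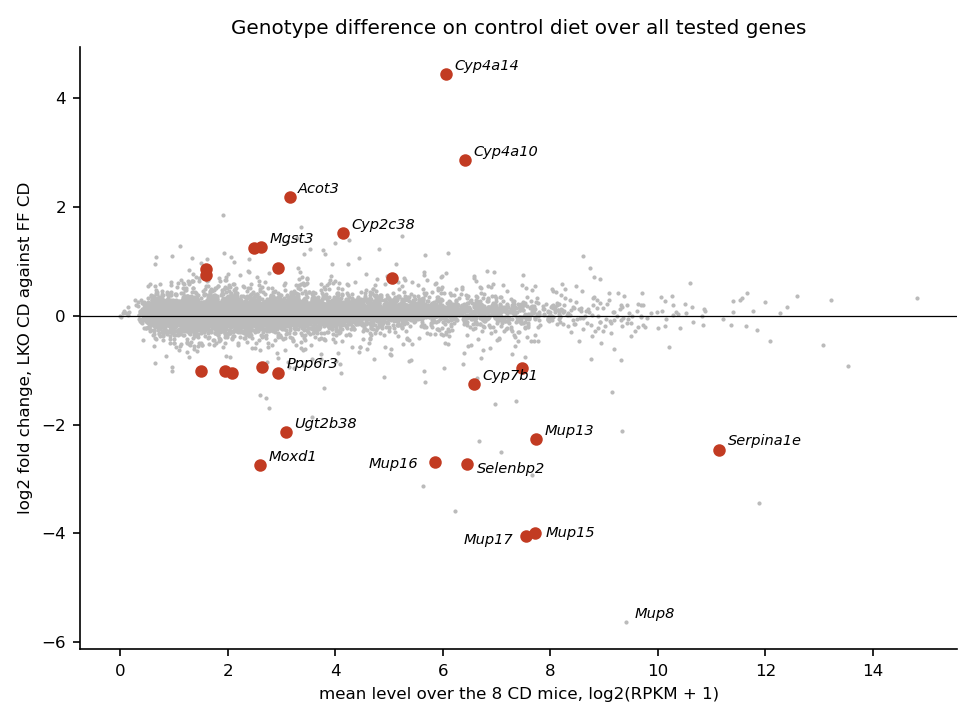
Log2 fold change of LKO CD against FF CD (y axis) over the mean level in the 8 CD mice, log2(RPKM + 1) (x axis), 1 point for each of the 11090 tested genes, with the 25 called genes in red. The called genes reach from 4.43 for Cyp4a14 to -4.04 for Mup17, and Mup8 lies lower still at -5.62 without a call.

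Estimated library depth was 23.4 to 32.1 M reads in the 8 CD mice, and 9285 to 9637 genes reached 1 RPKM in a given mouse. Genotype accounted for 27.7% of the variation between the 8 profiles, where 1 of 7 degrees of freedom gives 14.3%. Correlation across genes was 0.981 to 0.993 within a genotype (12 pairs) and 0.978 to 0.989 between genotypes (16 pairs), with genes not being independent replicates. For 7 of the 8 mice the most similar profile belonged to the same genotype. The first principal component (32.8% of the variation) held the 4 FF CD mice at lower values than the 4 LKO CD mice, with LKO CD mouse 3 nearest to the FF CD mice, and FF CD mouse 4 and LKO CD mouse 3 lay together at the top of the second (27.0%). The labels do not name litters or cages, so p-values measure the spread between these mice. In whole liver, fewer cells of a type and less RNA per cell cannot be told apart.

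**Figure D3:**
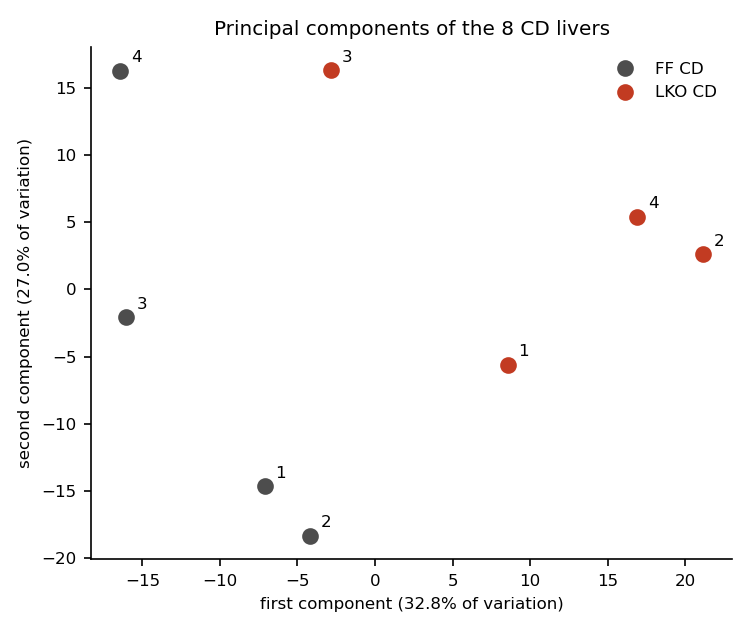
First and second principal components of the 8 CD livers, computed on log2(RPKM + 1) of the tested genes (axes in component units, with the percent of variation), 1 numbered point per mouse, FF CD in grey and LKO CD in red. The first component parts the genotypes and LKO CD mouse 3 is the LKO mouse closest to the FF mice.

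Ppp6r3 (ENSMUSG00000024908.15, minus strand, chr19:3454928-3575749 in GRCm38) had an RPKM of 8.38, 8.82, 10.98 and 9.17 in the FF CD mice. In the LKO CD mice it was 4.08, 3.88, 4.02 and 3.99. The LKO values were tightly grouped and stayed well above 0. The mean was 9.34 ± 1.14 (SD, n = 4) in FF CD and 3.99 ± 0.0822 (SD, n = 4) in LKO CD livers, and Ppp6r3 fell by 1.04 ± 0.08 (SE) on the log2 scale (limma adjusted p = 6.72e-07). Cell types were not separated, and the share of the remaining RNA that came from cells without Cre was not tested. The RPKM covers the whole gene, so reads outside the deleted part are counted too.

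The partners of SAPS3 in PP6 did not pass the test. Of the 7 listed PP6 genes Ppp6r3 was the only one called, and the median log2 difference of the list was -0.05. Ppp6c, the catalytic subunit, measured 13.7 ± 1.68 (SD, n = 4) RPKM in FF CD and 13.4 ± 0.338 (SD, n = 4) in LKO CD livers. Of the other SAPS subunits, Ppp6r1 differed by -0.05 ± 0.09 (SE) and Ppp6r2 by 0.13 ± 0.08 (SE) on the log2 scale. The ankyrin scaffold subunits Ankrd28, Ankrd44 and Ankrd52 had log2 differences of -0.01, -0.10 and -0.32.

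AMPK is assembled from a catalytic alpha, a scaffolding beta and a nucleotide-sensing gamma subunit, and is phosphorylated by upstream kinases. None of the 8 tested genes of this list was called or had an unadjusted p under 0.05, which 7.67% of all tested genes had, and the median difference was 0.01 on the log2 scale. The catalytic subunits differed by -0.05 ± 0.09 (SE) for Prkaa1 and -0.02 ± 0.10 (SE) for Prkaa2. Prkab1 differed by -0.08, Prkag1 by 0.09 and Prkag2 by 0.08. Among the kinases, Stk11 (LKB1) differed by -0.01, Map3k7 (TAK1) by 0.02 and Camkk2 by 0.03. The signs of Prkaa2, Stk11, Map3k7, Camkk2 and Ankrd28 changed under some scalings or weightings, at differences under 0.05. RNA levels say nothing of the phosphorylation of AMPK.

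The largest rise was that of the omega-hydroxylases of fatty acids. Cyp4a14 had an RPKM of 3.18, 3.22, 2.19 and 12.1 in FF CD mice and of 51.9, 146, 95.1 and 213 in LKO CD mice. FF CD mouse 4 stood above the other FF mice, and the lowest LKO mouse was still above it. The gene rose by 4.43 ± 0.54 (SE) on the log2 scale (limma adjusted p = 0.000874), a ratio of means of 24.4, or 44.2 without FF CD mouse 4. Cyp4a10 had an RPKM of 27.1, 21.4, 5.55 and 33.3 in FF CD mice and of 128, 218, 86.7 and 156 in LKO CD mice. It rose by 2.85 ± 0.37 (SE) on the log2 scale (limma adjusted p = 0.00127). LKO CD mouse 2 or 4 was highest for both genes and FF CD mouse 3 lowest.

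Acot3, which cleaves long-chain acyl-CoAs in peroxisomes, was at 3.75, 1.81, 0.513 and 2.48 RPKM in FF CD mice and at 7.11, 24.3, 7.65 and 15.4 RPKM in LKO CD mice. It rose by 2.17 ± 0.43 (SE) on the log2 scale (limma adjusted p = 0.0369) and spread widely within both genotypes. Abcd2, which carries very long chain acyl-CoAs into peroxisomes, was at 2.86, 1.70, 1.57 and 3.23 RPKM in FF CD mice and at 6.55, 8.16, 4.96 and 7.59 RPKM in LKO CD mice. Its rise was 1.24 ± 0.25 (SE) on the log2 scale (limma adjusted p = 0.0397).

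The list of 25 PPAR alpha targets was tested in full. Like the other lists, it was chosen with earlier results of these data known, so its counts are not independent support. Among its genes 3 were called, all higher (Cyp4a14, Cyp4a10 and Acot3), beside 0.0902% of all tested genes called higher. Of the 25 differences 24 were above 0, where 61.7% of all tested genes were. An unadjusted p under 0.05 with a higher level was found for 18 of the 25, beside 5.49% of all tested genes, and for 12 of the 25 without LKO CD mouse 2. The median difference was 0.68 on the log2 scale, beside 0.03 over all tested genes. Without any 1 of the mice the median stayed between 0.54 and 0.81.

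Lists of fatty acid breakdown lay on the same side and share members with the PPAR alpha list. All 21 genes of mitochondrial beta-oxidation had differences above 0 (median 0.26), where 61.7% of all tested genes did, and none was called. Of the 21, 9 had an unadjusted p under 0.05, beside 5.49% of all tested genes with a higher level. It was 6 without FF CD mouse 3 and 6 without LKO CD mouse 4. Crat, which moves acyl groups to carnitine, measured 5.86 ± 2.72 (SD, n = 4) RPKM in FF CD and 13.5 ± 3.70 (SD, n = 4) in LKO CD livers, without overlap and with a limma adjusted p of 0.0772. Acadm, the medium-chain dehydrogenase, differed by 0.53 ± 0.12 (SE) on the log2 scale (limma adjusted p = 0.0824). Of 17 peroxisomal genes (median 0.35), Abcd2 was called, beside 0.0902% of all tested genes called higher. An unadjusted p under 0.05 with a higher level was found for 10, beside 5.49% of all tested genes, and for 7 without FF CD mouse 3. The peroxisomal enzymes Ehhadh and Acaa1b differed by 0.79 and 1.10 on the log2 scale, both at a limma adjusted p of 0.0824. Crat, Acadm, Ehhadh and Acaa1b were each called without LKO CD mouse 3, but not under most of the 32 alternatives. The 4 ketogenesis genes had differences above 0 (median 0.36) and none was called. Among 10 tested thioesterases, Acot1 and Acot2, the cytosolic and mitochondrial relatives of Acot3, had differences of 1.35 and 1.07 on the log2 scale without overlap and without a call.

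**Figure D4:**
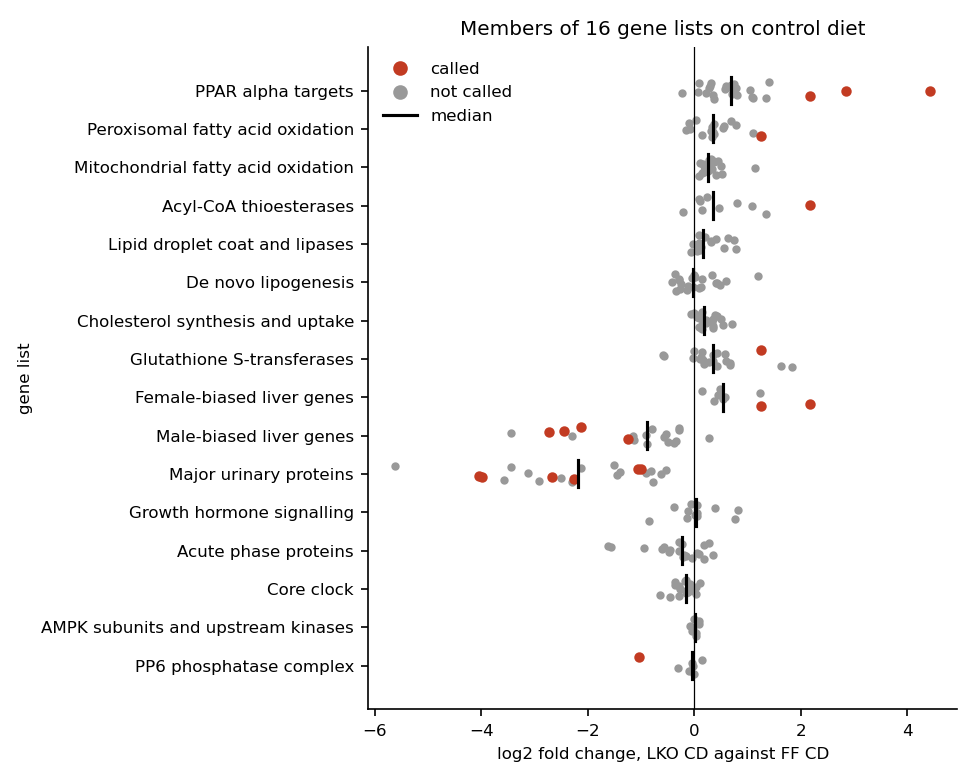
Log2 fold change of LKO CD against FF CD (x axis) for the tested members of 16 gene lists (y axis), 1 point per gene, red where called and grey where not, with a black bar at the median of each list. The PPAR alpha targets lie to the right with a median of 0.68, the Mup genes to the left with a median of -2.19, and the AMPK genes within 0.1 of 0.

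Genes of lipid synthesis and storage were also read. None of the 22 lipogenesis genes and none of 24 cholesterol genes was called, with median differences of -0.02 and 0.18 on the log2 scale. Pparg, the receptor that promotes lipid storage, was counted with lipogenesis and measured 2.34 ± 0.626 (SD, n = 4) RPKM in FF CD and 6.96 ± 2.81 (SD, n = 4) in LKO CD livers, without overlap, at a limma adjusted p of 0.0748. Pparg was called with a pseudocount of 0.1 (limma adjusted p = 0.0490), without LKO CD mouse 1 (0.0298), without FF HFD mouse 1 (0.0407), without LKO HFD mouse 1 (0.0468) and with weights per mouse (0.00534). Under most of the 32 alternatives Pparg was not called. Cd36, a fatty acid transporter, was at 4.12 ± 1.41 (SD, n = 4) and 13.3 ± 6.05 (SD, n = 4) RPKM, also without overlap and with a limma adjusted p of 0.176. The lipid droplet genes Plin2 and Cidec overlapped between the genotypes. Of the glucose genes, G6pc, the last enzyme of gluconeogenesis, differed by -0.75 ± 0.17 (SE) on the log2 scale without overlap (limma adjusted p = 0.0824).

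Detoxification genes stood beside the oxidation genes among those that rose. Cyp2c38, a cytochrome P450 that acts on fatty acids and drugs, was at 8.74, 8.68, 4.30 and 11.3 RPKM in FF CD mice and at 16.0, 28.8, 24.6 and 30.5 RPKM in LKO CD mice. It rose by 1.51 ± 0.24 (SE) on the log2 scale (limma adjusted p = 0.00732). Mgst3, a microsomal glutathione S-transferase, was at 2.27, 2.66, 2.53 and 2.88 RPKM in FF CD mice and at 6.41, 9.32, 5.58 and 9.61 RPKM in LKO CD mice. The FF values lay close together, and the rise was 1.26 ± 0.17 (SE) on the log2 scale (limma adjusted p = 0.00195).

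Mgst3 was the only called member of 21 glutathione S-transferases, beside 0.0902% of all tested genes called higher. Of the 21, 17 had differences above 0 (median 0.34), where 61.7% of all tested genes did. Gsta1 measured 0.526 ± 0.189 (SD, n = 4) RPKM in FF CD and 4.95 ± 3.20 (SD, n = 4) in LKO CD livers, and Gsta2 measured 3.98 ± 0.903 (SD, n = 4) and 14.6 ± 3.44 (SD, n = 4). Neither overlapped between the genotypes, and their limma adjusted p was 0.131 and 0.101. In the fit of the CD mice alone 4 of the 21 genes were called, Gsta1 and Gsta2 among them (limma adjusted p = 0.0329 and 0.0110), and with weights per mouse 5 were. Of 13 NRF2 antioxidant genes none was called, 11 lay above 0 and the median was 0.18. Among 22 xenobiotic P450 genes Cyp2c38 alone was called, and the median was 0.09.

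The other genes that rose have varied roles. Slc16a7 encodes MCT2, a transporter of lactate, pyruvate and ketone bodies. It was at 4.10, 4.06, 4.21 and 5.12 RPKM in FF CD mice and at 8.17, 10.3, 7.22 and 9.72 RPKM in LKO CD mice, and rose by 0.87 ± 0.13 (SE) on the log2 scale (limma adjusted p = 0.00559). Renbp, which interconverts N-acetylglucosamine and N-acetylmannosamine, was at 1.16, 1.21, 1.17 and 0.973 RPKM in FF CD mice and at 2.10, 3.95, 2.20 and 3.42 RPKM in LKO CD mice, with a rise of 0.85 (limma adjusted p = 0.0397). The host RNA Snhg11 rose by 0.76 and the pantetheinase gene Vnn3 by 0.69 on the log2 scale. FF CD mouse 3 was the lowest FF mouse in 7 of the 10 genes that rose, FF CD mouse 4 the highest in 7, and LKO CD mouse 2 the highest LKO mouse in 7.

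Mup genes carry the male urinary pheromone-binding proteins, made in the liver from a cluster of near-identical copies on chromosome 4. Mup17 was at 333, 752, 99.2 and 231 RPKM in FF CD mice and at 31.5, 16.7, 24.2 and 4.49 RPKM in LKO CD mice. Mup15 was at 255, 706, 147 and 456 RPKM in FF CD mice and at 57.7, 24.4, 19.6 and 5.14 RPKM in LKO CD mice. For both, FF CD mouse 2 was highest and LKO CD mouse 4 lowest. Mup17 fell by 4.04 ± 0.77 (SE) and Mup15 fell by 3.996 ± 0.67 (SE) on the log2 scale (limma adjusted p = 0.0279 and 0.0110).

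Mup16 was at 98.3, 174, 64.6 and 60.9 RPKM in FF CD mice and at 22.4, 9.91, 16.2 and 8.41 RPKM in LKO CD mice, and fell by 2.68 ± 0.46 (SE) on the log2 scale (limma adjusted p = 0.0129). Mup13 was at 265, 458, 261 and 419 RPKM in FF CD mice and at 71.1, 58.2, 106 and 54.7 RPKM in LKO CD mice. It fell by 2.26 ± 0.30 (SE) on the log2 scale (limma adjusted p = 0.00127) and was called under every alternative run. Mup4 and Mup5, whose sequences are further from the rest, fell by 1.01 and 1.05 on the log2 scale.

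All 22 listed Mup genes had differences below 0, with a median of -2.19 on the log2 scale, and 17 of them an unadjusted p under 0.05, beside 2.18% of all tested genes. Mup8 had the largest difference of any of them, -5.62 ± 2.17 (SE) on the log2 scale, with LKO CD mice between 0.284 and 414 RPKM and no call (limma adjusted p = 0.48). Without LKO CD mouse 4 the median of the list was -1.52. Summed over the 22 genes, Mup RNA came to 32882 to 45282 RPKM in FF CD and 13234 to 21676 RPKM in LKO CD mice, without overlap. Without FF CD mouse 2 the number of called Mup genes went from 6 to 2.

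Exonic windows of 50 bases shared with another annotated gene made up 100% of Mup15, 92.8% of Mup13, 91.7% of Mup16, 78.1% of Mup17, 17.1% of Mup5 and 12.4% of Mup4, so the split of reads between copies is uncertain and the copies are not independent.

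The windows around the start sites of Mup15 and Mup17 show how alike the copies are, and those of Moxd1 and Acot3 are examples of windows with a match to a motif searched. They are 300-base windows of RefSeq on GRCm38.p6, which matched 17 of the 25 called genes, given 5′ to 3′ on the strand of the gene. They lie at chr4:61439655-61439954 (minus strand) for Mup15, chr4:61595783-61596082 (minus) for Mup17, chr10:24223267-24223566 (plus) for Moxd1 and chr12:84051894-84052193 (plus) for Acot3. In the alignment of Mup15 and Mup17, 297 of the 300 bases of each window had an identical partner. Capitals mark the 3 bases of each that faced a gap, while in Moxd1 and Acot3 capitals mark the motif.
Mup15: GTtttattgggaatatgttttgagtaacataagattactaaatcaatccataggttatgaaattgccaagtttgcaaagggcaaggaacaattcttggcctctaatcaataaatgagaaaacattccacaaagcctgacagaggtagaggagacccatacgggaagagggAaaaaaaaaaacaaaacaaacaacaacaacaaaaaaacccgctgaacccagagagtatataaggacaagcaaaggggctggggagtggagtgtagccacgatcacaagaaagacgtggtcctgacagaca
Mup17: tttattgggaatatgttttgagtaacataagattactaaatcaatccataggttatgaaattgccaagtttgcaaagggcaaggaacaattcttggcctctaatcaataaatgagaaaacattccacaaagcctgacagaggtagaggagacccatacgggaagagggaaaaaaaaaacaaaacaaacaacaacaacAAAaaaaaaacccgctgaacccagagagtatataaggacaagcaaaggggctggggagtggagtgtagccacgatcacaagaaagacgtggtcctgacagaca
Moxd1: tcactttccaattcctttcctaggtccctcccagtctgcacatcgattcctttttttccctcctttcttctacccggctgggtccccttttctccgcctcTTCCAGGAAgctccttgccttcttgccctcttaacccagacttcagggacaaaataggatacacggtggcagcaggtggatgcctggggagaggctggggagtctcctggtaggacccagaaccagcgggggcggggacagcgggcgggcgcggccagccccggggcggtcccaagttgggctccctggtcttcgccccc
Acot3: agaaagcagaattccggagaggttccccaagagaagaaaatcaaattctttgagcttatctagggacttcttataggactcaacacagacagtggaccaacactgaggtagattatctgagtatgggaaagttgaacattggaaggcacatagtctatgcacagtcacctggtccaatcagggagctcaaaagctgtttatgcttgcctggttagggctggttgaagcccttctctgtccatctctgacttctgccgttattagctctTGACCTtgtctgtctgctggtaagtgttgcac

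The motif in Moxd1 is the STAT palindrome TTCNNNGAA, found on either strand in 8.30% of the 32851 RefSeq windows and in no other called gene with a window. That in Acot3 is the nuclear receptor half-site AGGTCA, here on the opposite strand, which 16.3% of all windows hold and which was also in the windows of Acmsd, Mup4 and Ugt2b38, genes that fell. The direct repeat AGGTCANAGGTCA, which contains the half-site, was in 0.0396% of all windows and in none of the 17 called genes with a window. Cyp4a14, Cyp4a10 and Abcd2 had no window and were not searched. Of the 18 PPAR alpha targets with a window, 6 held the half-site. These are matches of letters and not binding sites.

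Male-biased genes outside the Mup cluster fell as well. Selenbp2, a selenium-binding protein of male liver, was at 150.3, 94.5, 207 and 144 RPKM in FF CD mice and at 39.2, 22.2, 24.1 and 8.63 RPKM in LKO CD mice. It fell by 2.73 ± 0.43 (SE) on the log2 scale (limma adjusted p = 0.00732). Serpina1e, a secreted alpha-1-antitrypsin, was at 3169, 3272, 5356 and 3311 RPKM in FF CD mice and at 1125, 607, 940.3 and 312 RPKM in LKO CD mice. It fell by 2.46 ± 0.49 (SE) on the log2 scale (limma adjusted p = 0.0397).

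Ugt2b38, a glucuronosyltransferase, was at 10.6, 12.0, 22.4 and 6.80 RPKM in FF CD mice and at 1.62, 1.78, 2.52 and 1.91 RPKM in LKO CD mice, and fell by 2.13 ± 0.37 (SE) on the log2 scale (limma adjusted p = 0.0141). Cyp7b1, the oxysterol hydroxylase of the alternative bile acid pathway, measured 134 ± 22.9 (SD, n = 4) RPKM in FF CD and 55.8 ± 11.2 (SD, n = 4) in LKO CD livers, and fell by 1.26 ± 0.24 (SE) on the log2 scale (limma adjusted p = 0.0360). It was the only called gene among 16 of bile acid synthesis and transport, whose median difference was 0.03. Of the 50-base windows, 43.9% of Selenbp2 (all with Selenbp1), 37.4% of Ugt2b38 and 34.6% of Serpina1e were shared with related genes, and none of Cyp7b1.

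Of 19 male-biased genes, 4 were called lower, beside 0.135% of all tested genes, and 18 lay below 0 (median -0.88). An unadjusted p under 0.05 with a lower level was found for 13, beside 2.18% of all tested genes. The summed RPKM of this list, 33651 to 45355 in FF CD mice, was close to that of the Mup list, and the counts of the lists are not independent. Mup7 belongs to this list and the Mup list, and had a difference of -3.45 ± 1.17 (SE) on the log2 scale without overlap or call (limma adjusted p = 0.367). Without FF CD mouse 2 a single one of the 19 was called and 9 had an unadjusted p under 0.05. Of 24 female-biased genes only 9 were high enough in the 18 mice to be tested. All 9 lay above 0 (median 0.54), where 61.7% of all tested genes did. Acot3 and Abcd2, which also belong to the oxidation lists, were the 2 called, beside 0.0902% of all tested genes called higher. Neither was called without FF CD mouse 2 or 3, LKO CD mouse 2 or 4, or FF HFD mouse 3 or 5. The median was 1.28 with a pseudocount of 0.1, 1.57 with voom and 0.079 with no filter on low values, and 7 of the 9 passed a filter on the CD mice alone. Cyp2b9, a P450 of female liver, was at 0 to 0.0228 RPKM in FF CD and at 0 to 3.42 RPKM in LKO CD mice and passed the filter through the HFD mice, and Cyp2a4, of the same kind, was at 0.257 ± 0.186 (SD, n = 4) and 0.874 ± 0.574 (SD, n = 4) RPKM.

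Genes of growth hormone signalling, which sets this sex bias, were not called. Among the 12 tested the median difference was 0.03 on the log2 scale. Bcl6, a repressor high in male liver, was at 9.93 ± 3.56 (SD, n = 4) RPKM in FF CD and 5.44 ± 3.58 (SD, n = 4) RPKM in LKO CD livers, with overlap. Prlr, the prolactin receptor, was at 2.91 ± 1.44 (SD, n = 4) and 5.54 ± 0.353 (SD, n = 4) RPKM, without overlap and with a limma adjusted p of 0.0999, and was called without FF CD mouse 1 (limma adjusted p = 0.0131) and with weights per mouse (0.0229). Under the other alternatives Prlr was not called. Cish, induced by STAT5, overlapped widely between the genotypes.

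Moxd1, a monooxygenase-like protein of the endoplasmic reticulum, was at 5.89, 24.7, 7.93 and 1.36 RPKM in FF CD mice and at 0.755, 0.0460, 0.0120 and 0 RPKM in LKO CD mice. Whole reads recovered from these values were 583, 1911, 572 and 106 in the FF CD mice and 58, 4, 1 and 0 in the LKO CD mice. LKO CD mouse 1 held nearly all LKO reads, and FF CD mouse 4 was closest to it. The gene fell by 2.74 ± 0.45 (SE) on the log2 scale (limma adjusted p = 0.00830), a scale that understates changes of low genes, and the FF mean was 49.1 times the LKO mean. That ratio rested on single mice, at 24.9 without FF CD mouse 2 and 515 without LKO CD mouse 1. Moxd1 was not called in the fit of the CD mice alone (limma adjusted p = 0.134) or with voom (adjusted p = 0.0883). Moxd1 shared no window with another gene.

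Adgrf1, an adhesion G protein-coupled receptor, was at 2.80 ± 1.18 (SD, n = 4) RPKM in FF CD and 0.840 ± 0.335 (SD, n = 4) RPKM in LKO CD livers, and fell by 1.01 ± 0.16 (SE) on the log2 scale (limma adjusted p = 0.00732). C9, a component of the complement membrane attack complex, fell by 0.96 and Acmsd, which diverts tryptophan breakdown away from NAD synthesis, by 0.94 on the log2 scale. LKO CD mouse 4 was the lowest LKO mouse in 10 of the 15 genes that fell, and LKO CD mouse 1 the highest in 9.

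None of 20 acute phase genes was called, and the median difference was -0.23 on the log2 scale. The serum amyloid gene Saa2 was at 234 ± 398 (SD, n = 4) RPKM in FF CD livers, where FF CD mouse 2 held 827, and at 15.3 ± 8.88 (SD, n = 4) RPKM in LKO CD livers. Of 18 clock genes none was called, and the median was -0.16. An unadjusted p under 0.05 with a lower level was found for 4, among them Per2 and Bhlhe40, beside 2.18% of all tested genes. Time of day at collection is not given in the labels. Of 73 nuclear genes of the respiratory chain 72 lay above 0 at a median of 0.11, beside 61.7% and a median of 0.03 over all tested genes. Above 0 were 50 without FF CD mouse 4, 58 with quantile normalization and 64 with centring on the median. The 77 ribosomal protein genes had a median of 0.00. Urea cycle genes lay below 0 in 9 of 9 (median -0.12) without a call.

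The 8 hepatocyte markers were abundant in all CD mice, with a summed RPKM of 31798 to 40040.1 in FF CD and 38944 to 49742 in LKO CD livers. Alb itself was at 25682 ± 3363 (SD, n = 4) and 32274 ± 3451 (SD, n = 4) RPKM, which was no call. The 8 markers of Kupffer cells and the 8 of sinusoidal endothelium held no called gene, with summed RPKM of 46.9 to 66.7 and 20.8 to 47.0 in FF CD and of 40.9 to 65.2 and 16.0 to 45.7 in LKO CD livers. All 9 markers of stellate cells lay above 0 (median 0.28, none called), where 61.7% of all tested genes did. Their summed RPKM was 62.1 to 88.7 in FF CD and 62.6 to 108 in LKO CD livers. The 5 erythrocyte markers lay below 0, at 122 to 513 and 71.8 to 585 summed RPKM. The part of blood or stellate cells in the results was not tested.

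The same 25 genes were then read in the HFD mice, which share no mouse with the CD comparison, to ask whether the genotype effect held on another diet. Apart from Ppp6r3, which was called lower again, 23 of 24 had the opposite sign under HFD, beside 56.9% of all tested genes. Of the 14 others that fell on CD, all but Acmsd lay above 0 on HFD, and all 10 that rose on CD lay below 0. On HFD 7 of them were called in the opposite direction, where 2.07% of all tested genes were called. The difference between the genotype effects was called for 23 of the 24, beside 2.44% of all tested genes (limma), though it contains the CD difference by which they were chosen. The exception was Acmsd (limma adjusted p = 0.0611), and the difference for Ppp6r3 was not called either (0.32 ± 0.10 (SE), limma adjusted p = 0.106).

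**Figure D5:**
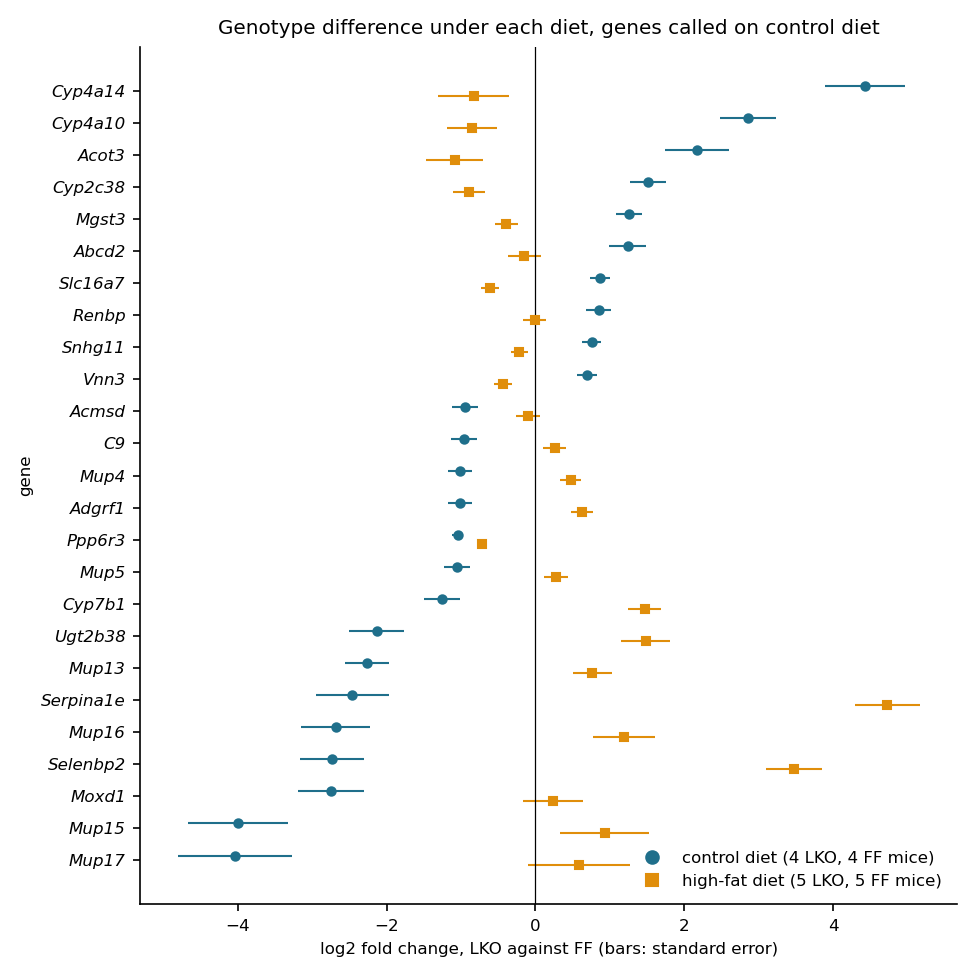
Log2 fold change of LKO against FF mice (x axis, bars are standard errors of the fit) under CD (circles, 4 and 4 mice) and HFD (squares, 5 and 5 mice) for the 25 genes called on CD (y axis). All genes but Ppp6r3 and Acmsd change side between the diets, with Serpina1e going from -2.46 to 4.73.

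Serpina1e showed the widest difference of the 25. On HFD it was at 79.0 ± 65.9 (SD, n = 5) RPKM in FF and 1637 ± 219.9 (SD, n = 5) RPKM in LKO livers, so that LKO livers were 4.73 higher on the log2 scale. Selenbp2 was at 6.36 ± 1.62 (SD, n = 5) RPKM in FF HFD and 93.5 ± 66.5 (SD, n = 5) RPKM in LKO HFD livers, a log2 difference of 3.48. Cyp7b1 was at 32.0 ± 12.5 (SD, n = 5) and 87.5 ± 21.6 (SD, n = 5) RPKM. Moxd1 was listed at 0 in all 5 FF HFD mice and at 0.00960 to 0.928 RPKM in LKO HFD mice, so no fold is given.

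The levels of Cyp4a14, Cyp4a10, Acot3 and Cyp2c38, the called genes with the largest rises, are given side by side. They are not compared by a test, since the FF CD mice are shared by the genotype and the diet comparison. Cyp4a14 averaged 5.18 RPKM in FF CD, 127 in LKO CD, 266 in FF HFD and 177 in LKO HFD livers. Cyp4a10 averaged 21.9 RPKM in FF CD, 147 in LKO CD, 236 in FF HFD and 132 in LKO HFD livers. Acot3 averaged 2.14 RPKM in FF CD, 13.6 in LKO CD, 31.9 in FF HFD and 15.5 in LKO HFD livers. Cyp2c38 averaged 8.26 RPKM in FF CD, 25.0 in LKO CD, 43.5 in FF HFD and 22.8 in LKO HFD livers. For each of these the LKO CD mean lay between the FF CD and FF HFD means, and the other genes that rose are not set side by side here. Among the lists, the median genotype effect of the PPAR alpha targets was 0.68 on CD and -0.33 on HFD, and that of the Mup genes -2.19 and 0.78. Not all lists changed sign, with medians of 0.18 and 0.56 for cholesterol genes and of -0.12 and -0.15 for urea cycle genes.

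Over all genes, the difference between the genotype effects was called for 271, of which 105 (0.947%) were higher and 166 (1.5%) lower on HFD than on CD, and 112 and 299 after rescaling to the same sum. Leaving out 1 mouse lowered the count to 156 for FF CD mouse 3, 157 and 162 for LKO CD mouse 2 or mouse 4, and 177 for FF HFD mouse 2. Serpina1e, Mup7, Selenbp2, Hsd3b5 and Mup15 had the largest positive differences, 7.19, 6.40, 6.21, 5.86 and 4.92 on the log2 scale. Cyp2b9, Cyp4a14, Cyp2a4, Cyp4a10 and Hamp2 had the largest negative ones, -5.99, -5.26, -4.58, -3.71 and -3.69. Hsd3b5, a male-biased steroid enzyme, was at 133 ± 26.7 (SD, n = 4) RPKM in FF CD and 63.1 ± 27.9 (SD, n = 4) RPKM in LKO CD livers without a call, while G6pc was lower in LKO livers under both diets, called on HFD alone at -1.74.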

How the data were processed

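Liver RNA of 18 mice was analysed, with groups taken from the sample titles. The authors aligned reads with HISAT2 2.0.4 and used the Partek suite, on mm10 per the processing notes, and deposited 1 table of RPKM values per mouse. The counter, the annotation and the handling of multi-mapping reads are not given in the sources used here.

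Values were used as deposited, as log2(RPKM + 1), for the 11090 genes that averaged 0.5 RPKM or more. A limma 3.58.1 model (R 4.3.3, lmFit and eBayes with a trend) had 1 coefficient for each of the 4 groups. Genes were called at a fold above 1.5 and a Benjamini-Hochberg adjusted p under 0.05. The members and gene lists were chosen with earlier results of these data known. The text names all called genes (values of each mouse for the 8 largest in each direction), the PP6 and AMPK genes, the 3 most changed genes of each other list among those averaging 1 RPKM or more, and 5 in each direction with the largest difference between diets.

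Depth was estimated from the steps of low RPKM values (up to 0.2) of genes with a single exon block. Of 249 to 280 such genes per CD mouse, 55 to 64 gave whole reads within 0.2%. RPKM values keep no count model, so depth entered no test other than voom. Symbols of 24772 of 25266 genes matched GENCODE on GRCm38. On simulated data with 200 changed genes of 11090 (log2 change 2), 99.5% were recovered. The simulated noise was normal and independent between genes, and low genes were not changed. The figure therefore gives no sensitivity for smaller changes, low genes or correlated copies. The alternatives are given in the closing section. The values of 1 listed gene are not reported here.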

Additional observations from a re-analysis of the deposited data

Results flagged for a closer look

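A mouse far from the others of its group, by Dixon's test on the RPKM of a gene, was found in 17 of 284 groups of named genes, and chance gives about 1 in 20. In the FF CD group, mouse 1 stood apart for Cyp2b9 at 0 RPKM. In the FF CD group, mouse 2 stood apart for Saa2 at 827 and Gpam at 84.6 RPKM. In the FF CD group, mouse 3 stood apart for Serpina1e at 5356 RPKM. In the FF CD group, mouse 4 stood apart for Lyve1 at 3.19, Slc16a7 at 5.12 and Cyp4a14 at 12.1 RPKM. In the LKO CD group, mouse 1 stood apart for Moxd1 at 0.755, Bcl6 at 10.8, Ppp6c at 13.9 and Trp53inp1 at 12.7 RPKM. In the LKO CD group, mouse 2 stood apart for Gpam at 88.4 RPKM. In the LKO CD group, mouse 3 stood apart for Map3k7 at 7.07, Mcm7 at 2.16 and Vnn3 at 33.0 RPKM. In the LKO CD group, mouse 4 stood apart for Plk2 at 2.77 and Cyp2b9 at 3.42 RPKM.

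The genotype effect differed between the diets for 51 of 142 named genes, by the limma test of the difference (adjusted p under 0.05, with no limit on the fold). At this limit 329 of all 11090 tested genes passed. Named genes were chosen in part by this difference and by the CD difference, so their share is not a result about them. Values are the LKO against FF difference on HFD minus that on CD, on the log2 scale, and each contains the CD difference. Among genes called lower on CD it was 1.22 for C9, 1.33 for Mup5, 1.48 for Mup4, 1.64 for Adgrf1, 2.72 for Cyp7b1, 2.98 for Moxd1, 3.02 for Mup13 and 3.61 for Ugt2b38. Further values were 3.88 for Mup16, 4.63 for Mup17, 4.92 for Mup15, 6.21 for Selenbp2 and 7.19 for Serpina1e. Among genes called higher on CD it was -5.26 for Cyp4a14, -3.71 for Cyp4a10, -3.26 for Acot3, -2.40 for Cyp2c38, -1.65 for Mgst3, -1.48 for Slc16a7, -1.39 for Abcd2 and -1.12 for Vnn3. Further values were -0.97 for Snhg11 and -0.86 for Renbp. Of the genes not called on CD it was positive with 0.66 for Camkk2, 0.84 for Cyp1a2, 1.41 for Cyp2c70, 5.86 for Hsd3b5 and 6.40 for Mup7. It was negative for the others not called on CD, with -5.99 for Cyp2b9, -4.58 for Cyp2a4, -3.69 for Hamp2, -3.51 for Gsta1, -3.30 for Cd36, -2.95 for Cidec, -2.45 for Gsta2 and -2.41 for Apoa4. Further values were -2.03 for Acot2, -1.87 for Acot1, -1.72 for Pparg, -1.68 for Acaa1b, -1.66 for Col3a1, -1.57 for Nqo1, -1.52 for Crat and -1.51 for Col1a1. Further values were -1.29 for Fabp2, -1.18 for Ephx1, -1.11 for Ehhadh, -0.99 for G6pc, -0.80 for Acadm, -0.63 for Acat1 and -0.51 for Ttr.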

How the results depend on the processing

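Ppp6r3 was called under every alternative. Of the 25 genes, 6 were called under every alternative in which they were tested (Cyp4a10, Cyp4a14, Mgst3, Mup13, Ppp6r3 and Slc16a7), and 11 with each of the 18 mice left out. Against the 25 reported, 12 genes were called with no filter, where more genes are tested, 6 with no moderation of the variance, and 136 with weights per mouse (85 higher and 51 lower), in which FF CD mouse 4 (0.475) and LKO CD mouse 3 (0.557) had the lowest weights of the CD mice. Leaving out 1 mouse gave 11 to 45. The difference between diets, reported for 271 genes, was called for 169 with no filter, 411 with the same sum, 167 with no moderation and 443 with weights, and for 156 to 392 with 1 mouse left out. A pseudocount of 0.1, filters at a mean RPKM of 1 and on the CD mice, quantile normalization, centring, a fit of the CD mice alone, robust moderation, voom and the adjusted p alone left the count on CD within 1.5 times. The genes changed more than the count: the fit of the CD mice alone kept 18 of the 25 and called 13 others, and voom lost Acot3, Moxd1, Renbp and Serpina1e. Adgrf1 was not tested under the filter at 1. The cause of these shifts was not tested. Signs turned for genes near 0. With weights, Prkaa2 was at 0.028, Stk11 at 0.025 and Map3k7 at -0.022. With the same sum, Stk11 was at 0.0035 and Ankrd28 at 0.0024. Map3k7 was at -0.019 with quantile normalization and -0.011 with centring, and Camkk2 at -0.0023 with centring. With 1 mouse left out, log2 differences ran from -1.12 to 0.014 for Hbb-bt, -1.14 to 0.11 for Hba-a1, -0.34 to 0.0045 for Gadd45a, -0.41 to 0.15 for Fcgr2b, -0.20 to 0.067 for Stab1, -0.081 to 0.0027 for Ppp6r1, -0.10 to 0.034 for Ppp6c, -0.077 to 0.090 for Prkaa2, -0.044 to 0.041 for Stk11, -0.061 to 0.045 for Ankrd28, -0.044 to 0.050 for Map3k7, -0.0070 to 0.074 for Camkk2, -0.017 to 0.15 for Mcm7 and -0.040 to 0.35 for Lyve1. Replicate numbers are shared by the groups, and the deviations of same-numbered CD mice correlated at 0.156, 0.275, 0.061 and 0.015, so the numbers were not taken to pair mice. With the replicate block 26 genes were called on CD, 20 of them among the 25, and 294 for the difference between diets. The block in a fit of the 8 CD mice alone, added after seeing the data, called 89. By the filter on RPKM, 15 of the 24 female-biased genes were not tested.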

Other observations

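Apolipoprotein genes lay above 0 in 11 of 14, at a median of 0.21 on the log2 scale and with none called. Apoa2 and Apoe, which coat HDL and remnant particles, differed by 0.41 ± 0.13 (SE) and 0.36 ± 0.13 (SE) on CD (limma adjusted p = 0.291 and 0.406). Pericentral genes, those of hepatocytes around the central vein, lay below 0 in 8 of 10 (median -0.11), and the P450 gene Cyp1a2 differed by -0.47 ± 0.15 (SE, limma adjusted p = 0.312). Sphingolipid genes lay above 0 in 20 of 23 (median 0.09). None of these lists held a called gene, and 61.7% of all tested genes lay above 0.

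The 21 genes of the unfolded protein and integrated stress response had a median of -0.08 on CD and 0.62 on HFD, with none called on CD. Medians on CD were 0.16 for 16 lipid droplet genes, -0.01 for 11 genes of fatty acid uptake, 0.02 for 12 of gluconeogenesis and glycolysis and -0.06 for 11 of insulin signalling. They were 0.01 for 11 p53 targets, 0.07 for 9 cell cycle genes, 0.05 for 11 NF-kB and cytokine genes, 0.17 for 12 interferon genes and -0.08 for 5 metallothioneins and zinc transporters. No gene of these lists was called on CD.

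Of the other marker lists, 3 of 6 cholangiocyte genes, 2 of 5 neutrophil genes and a single gene each of the lymphocyte, adipocyte, exocrine pancreas and skeletal muscle lists were high enough to test, and none was called. Summed RPKM of the exocrine pancreas markers was 7.42 to 15.5 in FF CD and 4.62 to 11.3 in LKO CD mice, and of the adipocyte markers 0.0463 to 0.270 and 0.0871 to 0.539.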
